A study of Mus musculus with 4 samples.

Results

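The interleukin-1 (IL-1) family genes described here are the cytokine genes Il1a, Il1b and Il33, the antagonist gene Il1rn and the receptor genes Il1r1, Il1r2, Il1rap and Il1rl1. These 8 genes were found by symbol among the 32285 genes of the count matrices. All 8 had at least 1 unique molecular identifier (UMI, a count of 1 captured mRNA molecule) in both libraries, of 22632 genes with a UMI in the young library and 22288 in the old.

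IL-1α (Il1a) and IL-1β (Il1b) are inflammatory cytokines that bind the same receptor, IL1R1 (Il1r1), which signals only after it recruits the accessory protein encoded by Il1rap. Il1rn encodes the receptor antagonist, which occupies IL1R1 without signalling, and Il1r2 encodes a decoy receptor that binds ligand and cannot signal. IL-33 (Il33) is a nuclear cytokine released by damaged barrier and connective tissue cells, and its receptor is ST2 (Il1rl1), again paired with Il1rap. In bone, IL-1 is known for driving bone resorption and for acting on marrow stroma and blood progenitors.

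Single-cell RNA and CD24 surface protein were measured together by CITE-seq in cells of femur and tibia from 1 young mouse (6 months) and 1 old mouse (24 months). Both were INK-ATTAC mice, which carry a transgene that expresses an inducible caspase 8 from a fragment of the p16Ink4a promoter, and neither was treated. Lineage-positive blood cells (among them those with CD11b, Gr-1 or Ter-119) were removed from digested bone and marrow, and live CD45- cells were sorted, so the blood cells described below are those that passed these steps, and their number does not reflect the tissue. With 1 mouse per age, a difference between the ages cannot be told apart from a difference between animals or libraries, and it carries no p-value.

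Barcodes with at least 200 genes and at most 20% mitochondrial UMIs were kept, 10063 in the young library (81076421 RNA UMIs, median 6385 per barcode) and 5607 in the old (66702846, median 9711). The 2 libraries shared 25 barcode sequences. Barcodes were grouped by their share of marker UMIs, and no member was a marker. This gave 167 young and 302 old neutrophil-like barcodes, 1022 and 590 other blood barcodes and 8607 and 4333 mesenchymal barcodes, while 267 and 382 kept barcodes were left unplaced. Other blood was split into erythroid-, B-lineage- and megakaryocyte-like classes, and mesenchymal barcodes into stromal- (Lepr, Cxcl12, Adipoq), fibroblast- (Pi16, Clec3b, Dpt), osteoblast- (Bglap, Alpl), chondrocyte- or tendon- and pericyte-like classes. In each class, none of the 10 genes with the largest fold over all other barcodes was a marker of another class. This follows largely from the rule, which placed barcodes by these same markers, and is no separate check of the classes. Levels are UMIs scaled to 1e6 per sum (CPM) of the summed UMIs of a class, given with 95% Poisson intervals that cover counting error only.

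**Figure D1:**
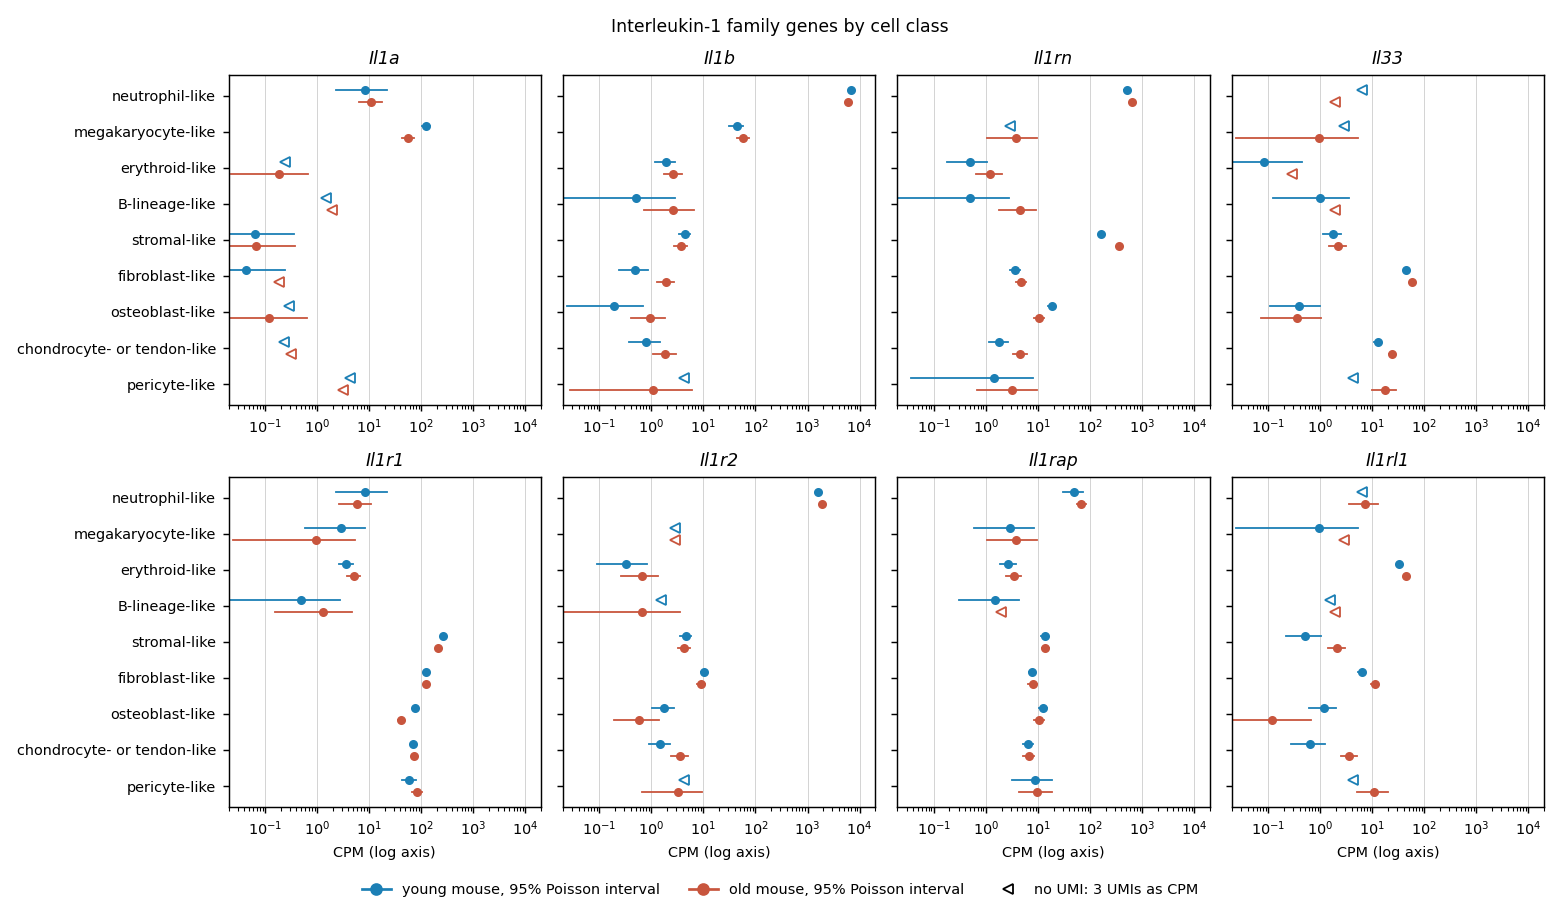
Level of each IL-1 family gene (CPM, log axis) in 9 cell classes of the young (blue) and old (red) mouse. Points are class sums, lines are 95% Poisson intervals (cut at the left edge), and open triangles stand at the level of 3 UMIs where no UMI was found. Neutrophil-like cells had the highest level of Il1b, Il1r2, Il1rn and Il1rap in both mice, megakaryocyte-like cells that of Il1a, fibroblast-like cells that of Il33, stromal-like cells that of Il1r1 and erythroid-like cells that of Il1rl1. Stromal-like cells stood second for Il1rn.

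The cytokine genes were separated by cell type. Il1b (chr2:129364569-129371164, GRCm38) was a gene of neutrophil-like cells, with 6889 CPM (interval 6654 to 7130) in the young mouse and 6118 CPM (5995 to 6243) in the old. A UMI of Il1b was found in 88.6% of young and 88.1% of old neutrophil-like barcodes, compared with 0.269% and 5.19% of B-lineage-like barcodes, although B-lineage-like barcodes were deeper (medians of 4379 and 9048 UMIs against 2240 and 3857). In both mice these levels were more than 100 times those of every other class of at least 20 barcodes. Within the neutrophil-like group, barcodes with more Retnlg, Csf3r and Cxcr2 than Ngp, Camp and Ltf UMIs (mature cells, 153 young and 285 old) held 8716 and 7077 CPM. The 14 young and 17 old immature barcodes held 256 and 169 CPM of Il1b, so the gene was more than 30 times higher in the mature cells of each mouse.

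Among the other classes of at least 20 barcodes, Il1b was highest in megakaryocyte-like cells, at 43.3 CPM (31.6 to 58.0) in the young and 58.2 CPM (44.5 to 74.8) in the old mouse. There 39.4% and 30.8% of barcodes had a UMI. Rare other blood barcodes (10 young, 6 old), placed by macrophage or monocyte, mast cell, T cell or progenitor markers, stood higher. They held 8 Il1b UMIs among 69346 UMIs in the young and 19 among 138617 in the old mouse. For comparison, the neutrophil genes S100a8 and S100a9 together gave 9 UMIs in the young megakaryocyte-like sum beside 45 of Il1b, and 24 beside 61 in the old. Neutrophil-like cells held 3.28 (young) and 2.85 (old) Il1b UMIs per 100 UMIs of S100a8 and S100a9. The rule for other blood, which includes megakaryocyte-like barcodes, itself kept the share of neutrophil marker UMIs low. These counts are therefore a description, and the part of neutrophil RNA in the Il1b of megakaryocyte-like cells was not tested. Mesenchymal barcodes held 1.46 and 2.23 CPM of Il1b. In young stromal-like cells, 5 barcodes carried 91.3% of the 69 Il1b UMIs and 1 of them carried 48. The 2 young mesenchymal barcodes with 3 or more Il1b UMIs also had 15 neutrophil marker and 3 macrophage marker UMIs between them. How far mixed droplets or free RNA contribute there was not tested.

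Il1a (chr2:129299609-129310186), the neighbour of Il1b on chromosome 2, was found in a different cell. Megakaryocyte-like cells, set by markers of platelet-forming cells that include Pf4 and Ppbp, held 126 CPM (106 to 150) in the young mouse and 56.3 CPM (42.9 to 72.6) in the old. These 66 young and 52 old barcodes contained 131 of the 141 Il1a UMIs of the young library and 59 of the 81 of the old. A UMI was present in 63.6% (50.9% to 75.1%) of young and 46.2% (32.2% to 60.5%) of old megakaryocyte-like barcodes, at median depths of 10339 and 10514 UMIs. No Il1a UMI was found in B-lineage-like cells of either mouse, whose 372 and 77 barcodes allow shares of barcodes with a UMI of up to 0.806% and 3.90%. The signal was uneven, as 5 barcodes carried 48.9% of the young and 45.8% of the old UMIs of the class. Neutrophil-like cells came next with 8.50 CPM from 4 UMIs and 11.1 CPM from 17 UMIs, and mesenchymal barcodes held 2 UMIs in each mouse.

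Il33 (chr19:29925113-29960718) was a gene of connective tissue cells. Fibroblast-like cells held 44.9 CPM (42.2 to 47.7) in the young mouse and 57.4 CPM (53.7 to 61.3) in the old, with a UMI in 19.8% and 26.5% of barcodes. Chondrocyte- or tendon-like cells followed at 12.8 CPM (10.9 to 14.9) and 24.0 CPM (21.0 to 27.3). Stromal-like cells had 1.73 and 2.17 CPM and osteoblast-like cells 0.390 and 0.352 CPM, and these intervals overlapped those of some blood classes. Old pericyte-like cells had 17.2 CPM, but 15 of those 16 UMIs came from 1 barcode, and young ones had none. No Il33 UMI was found in 167 young and 302 old neutrophil-like barcodes, which allows shares of barcodes with a UMI (not of cells expressing the gene) of up to 1.80% and 0.993% at their depth.

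The 3 cytokine genes share a feature of their start sites in RefSeq (GRCm38.p6). Among 32851 promoter windows, 12.4% held the TATA box core TATAAA on either strand in the 250 bases before the start, and 2.50% held it with its first base between 40 and 20 bases before the start. Il1a, Il1b and the second of the 2 Il33 starts all belong to that 2.50%, with the match at -32, -31 and -29 counted from the start. None of the 9 windows of the other members held the letters there. The AP-1 letters TGANTCA, in 6.75% of all windows, stood at -12 in Il1a and at -141 before the first Il1rn start, and in no other member's window. The sequences are shown for the 120 bases before each start, 5′ to 3′ on the gene's strand, with the match in capitals. A match is a description of the letters and not a measured site, and 3′ libraries do not tell which start was used.
Il1a (chr2:129309973-129310092, minus strand): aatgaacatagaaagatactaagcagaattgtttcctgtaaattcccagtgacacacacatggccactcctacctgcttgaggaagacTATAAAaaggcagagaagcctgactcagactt
Il1b (chr2:129371140-129371259, minus strand): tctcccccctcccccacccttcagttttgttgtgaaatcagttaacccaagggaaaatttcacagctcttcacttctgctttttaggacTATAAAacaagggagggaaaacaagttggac
Il33, second start (chr19:29945670-29945789, plus strand): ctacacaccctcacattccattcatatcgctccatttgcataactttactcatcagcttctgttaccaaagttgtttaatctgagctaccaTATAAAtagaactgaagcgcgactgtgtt

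The antagonist Il1rn (chr2:24336860-24351491) had 2 strong sources. Neutrophil-like cells held 510 CPM (448 to 579) in the young mouse and 637 CPM (598 to 678) in the old, and stromal-like cells held 161 CPM (155 to 167) and 364 CPM (354 to 374). Because stromal-like barcodes were far more numerous, they contained 2506 of the 3286 young and 5358 of the 6945 old Il1rn UMIs. Osteoblast-like cells had 18.3 and 10.4 CPM, fibroblast-like cells 3.68 and 4.82 CPM, and erythroid-like cells 0.489 and 1.22 CPM. A UMI was found in 38.6% of young and 62.4% of old stromal-like barcodes (median depths of 5117 and 8481 UMIs), compared with 0.348% and 2.86% of erythroid-like barcodes (17647 and 18379 UMIs). Stromal-like cells held 733 and 617 Il1rn UMIs per 100 UMIs of S100a8 and S100a9, whereas neutrophil-like cells held 0.243 and 0.297. The rule for stromal-like barcodes itself kept neutrophil marker UMIs under 0.2%, so these ratios are a description, and the part of neutrophil RNA was not tested.

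The signalling receptor Il1r1 (chr1:40222480-40316201) was a gene of mesenchymal cells, which held 97.2% of its kept UMIs in each mouse. Its level was highest in stromal-like cells (262 and 207 CPM in the young and old mouse), followed by fibroblast-like cells (126 and 127 CPM), and the intervals of these classes did not overlap in either mouse. Osteoblast-like cells had 75.7 CPM (70.5 to 81.2) in the young and 40.7 CPM (36.5 to 45.2) in the old mouse, chondrocyte- or tendon-like cells 69.6 and 74.0 CPM, and pericyte-like cells 59.0 and 83.8 CPM. The order of these last 3 classes differed between the mice, and several of their intervals overlapped. Neutrophil-like cells had 8.50 and 5.88 CPM, from 4 and 9 UMIs. A UMI of Il1r1 was found in 65.6% of young and 70.4% of old stromal-like barcodes, against 0.269% and 2.60% of B-lineage-like barcodes.

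The accessory receptor Il1rap (chr16:26581509-26730128) was found at low levels in most classes. Neutrophil-like cells led with 48.9 CPM (31.0 to 73.4) and 67.9 CPM (55.5 to 82.3), followed by stromal-like cells (13.4 and 14.0 CPM) and osteoblast-like cells (12.4 and 10.7 CPM), whose intervals overlapped. Fibroblast-like cells had 7.70 and 7.92 CPM and erythroid-like cells 2.69 and 3.46 CPM. After each barcode was thinned to 2000 UMIs, 0.982% of young and 0.986% of old stromal-like barcodes had both Il1r1 and Il1rap. Il1rap was found in 2.53% of young barcodes with and 2.54% of those without an Il1r1 UMI, and in 3.13% and 3.06% of old ones, so the joint detection was about that of the separate shares.

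The decoy receptor Il1r2 (chr1:40084692-40125230) had the same leading class as Il1b. Neutrophil-like cells held 1610 CPM (1497 to 1728) in the young and 1883 CPM (1815 to 1953) in the old mouse, with a UMI in 89.2% and 94.0% of barcodes. After thinning, 71.0% of 100 young and 75.4% of 281 old neutrophil-like barcodes had both Il1b and Il1r2, with 67 and 21 shallower barcodes left out. Among young barcodes Il1r2 was found in 83.5% of those with and 26.7% of those without an Il1b UMI, and among old barcodes in 88.3% and 82.9%. As 85 of the 100 young and 240 of the 281 old barcodes had an Il1b UMI, the shares without one rest on few barcodes. A second, much lower level stood in fibroblast-like cells, at 10.4 CPM (9.11 to 11.8) and 9.06 CPM (7.64 to 10.7). It was above the 4.63 and 4.28 CPM of stromal-like cells and the 0.326 and 0.655 CPM of erythroid-like cells, and the intervals did not overlap.

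The IL-33 receptor Il1rl1 (chr1:40404864-40465418) was found mainly in erythroid-like cells. These held 32.4 CPM (29.3 to 35.7) in the young and 45.2 CPM (41.2 to 49.4) in the old mouse, with a UMI in 40.8% and 50.3% of barcodes, and no UMI was found in B-lineage-like cells. The level was present at every haemoglobin content. Erythroid-like barcodes with under 1% haemoglobin UMIs had 28.6 and 31.3 CPM, those with 1% to 10% had 43.2 and 50.2 CPM, and those above 10% had 51.2 and 79.8 CPM. The last group held 18 young and 134 old Il1rl1 UMIs. Fibroblast-like cells had 6.23 and 11.1 CPM, but from few barcodes: 0.806% of young and 1.76% of old barcodes had a UMI, and 5 barcodes carried 83.3% and 69.1% of the UMIs. The 8 young and 21 old mesenchymal barcodes with 3 or more Il1rl1 UMIs, of which 7 and 12 were fibroblast-like, had no UMI of the 6 mast cell and basophil markers and no UMI of the macrophage markers. They had 81 and 319 UMIs of erythroid markers, 2 and 20 UMIs of neutrophil markers (in 2 young and 14 old barcodes) and 12 and 2 UMIs of pan-blood markers in all, and the part of RNA from blood cells in their Il1rl1 signal was not tested.

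Il1rl1 lies in a receptor cluster on chromosome 1 whose coding genes in order are Il1r2, Il1r1, Il1rl2, Il1rl1, Il18r1 and Il18rap, so that neighbours Il1r2, Il1r1 and Il1rl1 had neutrophil-like, stromal-like and erythroid-like cells as their leading classes. RefSeq gives 2 starts for Il1rl1. The letters AGATAA, the core that GATA factors of erythroid and mast cells bind, stood on 1 strand or the other in 9.99% of all windows and in both Il1rl1 windows, at -217 before the first start and at -103 before the second. No window of another member held them. The 2 stretches are shown because both windows held a match, which is in capitals (TTATCT is the same letters on the other strand). Only these letters, TATAAA and TGANTCA were searched. A match is not a measured site, and its part in the level of Il1rl1 was not tested.
Il1rl1, first start, bases -250 to -131 (chr1:40429320-40429439, plus strand): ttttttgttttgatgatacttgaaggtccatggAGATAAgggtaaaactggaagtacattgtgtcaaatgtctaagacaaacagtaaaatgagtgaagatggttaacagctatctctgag
Il1rl1, second start, bases -150 to -31 (chr1:40439479-40439598, plus strand): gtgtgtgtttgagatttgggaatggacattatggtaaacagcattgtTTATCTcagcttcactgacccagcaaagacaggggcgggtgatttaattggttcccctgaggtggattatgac

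The genes whose pattern was most like each member were ranked by Pearson's r of log2(CPM + 5) over 18 sums (9 classes in 2 mice), as a description in which the sums share libraries. Il1b was closest to Tnf (r = 0.991), Ltb4r1 (0.989) and Fgr (0.989), and Il1r2 to Ifitm6 (0.990), Apobr (0.990) and Ptgs2os2 (0.989). Il1a was closest to F10 (0.989), I830077J02Rik (0.972) and Tbxas1 (0.963). Il1rn was closest to Il10rb (0.968), H2-Q10 (0.954) and Lrg1 (0.945). Il33 stood with Galnt17 (0.976), AW551984 (0.969) and Prex2 (0.967), and Il1r1 with Mpdz (0.988) and Rbms3 (0.985). Il1rap was closest to Slc27a4 (0.961), Slc22a15 (0.946) and Ndel1 (0.943). Il1rl1 was closest to Dmtn (0.930), Ank1 (0.886) and Slc4a1 (0.880), of which Slc4a1 was an erythroid marker used to set the class. Among the members themselves, Il1b and Il1r2 were the most alike pair (r = 0.914).

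To ask which members differed between cell groups, UMIs were summed per mouse and group and tested with edgeR's quasi-likelihood F test. The mouse was a block, so the spread behind each p-value was the variation of group differences between the 2 mice. A test of this kind has 2 mice of different age behind it, and each sum of a mouse comes from the same animal. Between neutrophil-like and mesenchymal sums, 7 of 8 members differed (adjusted p under 0.05 over all genes tested), where 54.9% of 14993 genes did and the median log2 difference of all genes was -1.04. In neutrophil-like cells Il1b was higher, with a log2 difference of 12.51 (SE 0.48, adjusted p = 6.99e-10), as were Il1r2 (9.04, SE 0.40, adjusted p = 2.27e-09), Il1a (8.83, SE 0.78, adjusted p = 1.34e-06), Il1rn (3.71, SE 0.28, adjusted p = 2.86e-07) and Il1rap (3.34, SE 0.27, adjusted p = 6.62e-07). Il1r1 was lower, with a log2 difference of -3.56 (SE 0.36, adjusted p = 4.51e-06). Il33 had no UMI in neutrophil-like sums and was at least 14.3-fold lower there, counting 3 UMIs over the 2 sums (adjusted p = 0.000233). Il1rl1, with 0 and 11 UMIs in neutrophil-like sums, did not pass (adjusted p = 0.127). Both mice stood on the same side for each of these 7 genes, and how many of the 14993 genes did the same was not counted.

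Between other blood and mesenchymal sums all 8 members differed, where 73.4% of 14993 genes did. Il1a (log2 difference of 7.51, SE 0.57), Il1rl1 (3.25, SE 0.25) and Il1b (2.07, SE 0.34) were higher in other blood, with adjusted p-values of 1.03e-07, 1.08e-07 and 0.000119. Il33 (-7.02, SE 0.43), Il1rn (-5.90, SE 0.35), Il1r1 (-4.95, SE 0.26), Il1r2 (-3.34, SE 0.43) and Il1rap (-1.61, SE 0.26) were lower, with adjusted p-values from 3.66e-09 to 0.000108. Other blood mixes classes in proportions that differed between the mice, with 372 young and 77 old B-lineage-like barcodes. Between neutrophil-like and other blood sums 7 of 8 members differed, where 52.1% of 14993 genes did. Il1r2 (12.38, SE 0.48), Il1b (10.44, SE 0.45), Il1rn (9.61, SE 0.38) and Il1rap (4.95, SE 0.31) were far higher in neutrophil-like cells and Il1rl1 was lower (-2.15, SE 0.46, adjusted p = 0.00175). Il1a (1.32, SE 0.52, adjusted p = 0.0485) and Il1r1 (1.39, SE 0.50, adjusted p = 0.0342) were close to the threshold, and Il33, with no UMI in neutrophil-like and 4 in other blood sums, did not pass (adjusted p = 0.645). Without TMM scaling Il1r1 was at 8.50 and 5.88 CPM in neutrophil-like sums, from 4 and 9 UMIs, against 3.12 and 4.25 CPM in other blood. The size of its difference therefore depends on the scaling. Within the young mouse the log2 difference of Il1a was -0.00361, so its call rested on the old library, and thinning to 2000 UMIs left 4 of the 7 members called.

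**Figure D2:**
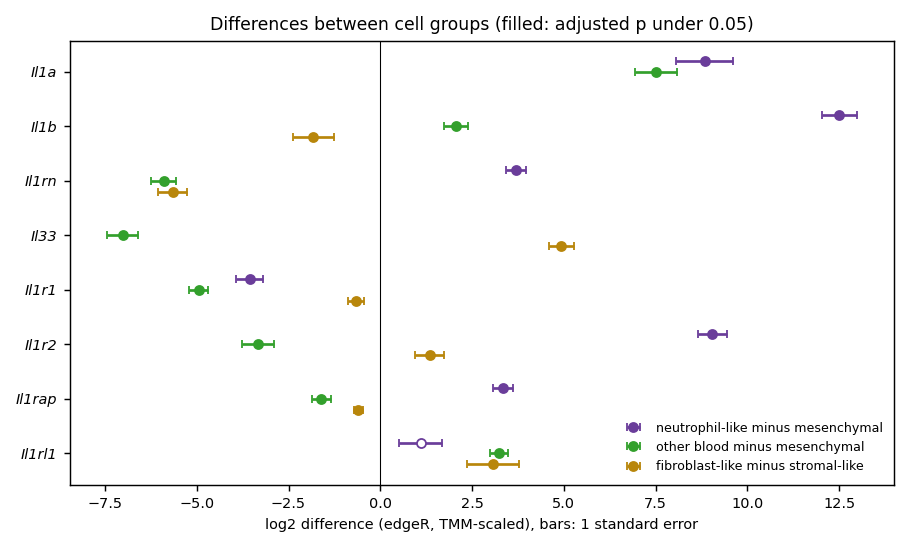
log2 differences of the members from edgeR (TMM-scaled sums of 2 mice) for neutrophil-like minus mesenchymal (purple), other blood minus mesenchymal (green) and fibroblast-like minus stromal-like sums (ochre), with bars of 1 standard error and filled points where the adjusted p was under 0.05. Il33 against neutrophil-like cells and Il1a between mesenchymal classes are not drawn because a group had no or almost no UMI. Neutrophil-like cells (purple) stand right of 0 for Il1a, Il1b, Il1rn, Il1r2 and Il1rap and left of 0 for Il1r1.

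Among the 5 mesenchymal classes, 7 members had enough UMIs to be tested, and all 7 differed between classes, where 62.3% of 14917 genes did. The smallest adjusted p-values were those of Il1rn (9.12e-06) and Il33 (1.20e-05), and the largest that of Il1b (0.0273). Il1rn and Il33 marked opposite classes. Fibroblast-like cells had less Il1rn than stromal-like cells (log2 difference of -5.66, SE 0.40, adjusted p = 1.12e-05) and more Il33 (4.93, SE 0.33, adjusted p = 8.90e-06). In this comparison all 7 members differed, where 48.3% of 14917 genes did. Il1rl1 (3.07, SE 0.71) and Il1r2 (1.34, SE 0.41) were higher in fibroblast-like cells, with adjusted p-values of 0.00748 and 0.0249, and Il1r1 (-0.67, SE 0.21, adjusted p = 0.0311), Il1rap (-0.60, SE 0.13, adjusted p = 0.00560) and Il1b (-1.83, SE 0.56, adjusted p = 0.0250) were lower. The Il1rl1 and Il1b calls rested on few barcodes: without the UMIs of the 5 highest mesenchymal barcodes of each library, a check added after the data were seen, the log2 differences were 1.00 (adjusted p = 0.342) and -0.23 (adjusted p = 0.695).

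Against stromal-like cells, osteoblast-like cells were lower in 4 of the 7 members, where 40.8% of 14917 genes differed. Il1rn (-3.82, SE 0.37, adjusted p = 0.000108), Il1r1 (-1.81, SE 0.22, adjusted p = 0.000395), Il1b (-2.80, SE 0.68, adjusted p = 0.0116) and Il1r2 (-1.66, SE 0.54, adjusted p = 0.0394) passed. Il33 had a log2 difference of -2.11 (adjusted p = 0.0526), and it passed under 5 of the 7 other settings tried. For Il1rap the difference was -0.02 with an SE of 0.13. Il1b in osteoblast-like cells rested on 2 young and 8 old UMIs.

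The other genes of the pathway were taken from 4 lists, whose counts between neutrophil-like and mesenchymal sums stand beside the 54.9% of all genes called in that comparison. Of 13 other IL-1 family genes, 7 could be tested between neutrophil-like and mesenchymal sums, of which 4 were higher, 1 was lower and 2 did not pass (median log2 difference of 1.32 against -1.04 over all genes). Il1f9 (IL-36γ, listed by RefSeq as Il36g) was higher by 13.27 (SE 0.37), with 257 and 458 CPM in neutrophil-like cells and 0.0317 and 0.0805 CPM in mesenchymal cells. Il18, an inflammasome-dependent cytokine, had a log2 difference of 0.05 (SE 0.42), and Il1rl2, the IL-36 receptor, was lower (-3.42, SE 1.03, adjusted p = 0.0139). Without TMM scaling Il18 was lower in neutrophil-like cells of both mice, at 10.6 and 6.53 against 13.8 and 12.2 CPM in mesenchymal cells. Of 16 signalling genes, 9 were higher, 1 was lower and 6 did not pass (median 0.90). After TMM scaling, Nfkbia, the inhibitor of NF-κB, was higher by 2.06 (SE 0.33), Tab2 by 0.87 (SE 0.21) and Nfkb1 by 0.62 (SE 0.22). Without that scaling, Nfkb1 was slightly lower in neutrophil-like cells, at 145 and 109 against 152 and 117 CPM in mesenchymal cells. Tab2 was at 108 and 88.1 against 86.4 and 87.1 CPM, so the direction of Nfkb1 and the size of Tab2 depend on the scaling. Of 8 testable genes of processing and release, 6 were higher, 1 was lower and 1 did not pass (median 1.37). The inflammatory caspase Casp4 (1.63, SE 0.25) and the inflammasome adaptor Pycard (1.11, SE 0.27) were higher, and the calpain Capn2 was lower (-4.50, SE 0.41). Without TMM scaling the Pycard difference was small, at 34.0 and 35.3 CPM in neutrophil-like against 30.6 and 25.6 CPM in mesenchymal cells. In that list, Ctsg and Prtn3 were also progenitor markers used in the grouping.

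Of 16 genes known to be induced by IL-1, 9 were lower in neutrophil-like than in mesenchymal sums, 5 were higher and 2 did not pass (median -1.97), and in other blood 15 were lower and 1 did not pass (median -5.57 against -0.20 over all genes, of which 73.4% were called). Between fibroblast-like and stromal-like cells most of them stood opposite to Il1r1. Of 15 tested, 11 were higher in fibroblast-like cells, the class with less Il1r1, 2 were lower and 2 did not pass (median 1.22 against -0.01 over all genes, of which 48.3% were called). The neutrophil-attracting chemokine Cxcl1 had 1430 and 808 CPM in fibroblast-like against 188 and 230 CPM in stromal-like cells (log2 difference of 2.63, SE 0.33), and Tnfaip6, a hyaluronan-binding protein, had 693 and 627 against 51.2 and 61.5 CPM (3.77, SE 0.42). The adhesion molecule Vcam1 was lower in fibroblast-like cells (-3.38, SE 0.29). Whether these genes respond to IL-1 in these cells was not measured. Of the signalling genes, 5 were higher, 3 lower and 8 did not pass in the same comparison, and Nfkb1 (1.33, SE 0.16) and Nfkbia (1.14, SE 0.20) were among the higher ones. Against stromal-like cells, osteoblast-like cells were lower in 8 of the 15 IL-1 responsive genes, higher in 2 and not called in 5 (median -1.33), where 40.8% of all genes were called.

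Old and young libraries were set side by side in each cell group, in members with at least 20 UMIs in both together. In all mesenchymal barcodes 1 of 7 members differed by more than 2-fold, where 5.67% of 16470 genes did. This was Il1rn, with 44.5 CPM in the young and 112 CPM in the old mouse, a ratio of 2.52 (counting interval 2.41 to 2.64). Within stromal-like cells the ratio was 2.26 (2.15 to 2.37), and 2 of 7 members passed 2-fold where 4.97% of 13821 genes did. The other was Il1rl1, from 8 and 31 UMIs. The Il1rn difference held at equal depth: after thinning to 2000 UMIs, 21.4% (19.8% to 23.1%) of 2445 young and 36.8% (34.5% to 39.2%) of 1622 old stromal-like barcodes had an Il1rn UMI, with 262 and 114 shallower barcodes left out. At this depth 1.72% of young and 7.34% of old barcodes had 3 to 5 Il1rn UMIs. The S100a8 and S100a9 level in stromal-like sums also differed, with 22.0 CPM in the young and 58.9 CPM in the old mouse, while Il1rn per 100 of these UMIs was 733 and 617 as given above. In osteoblast-like cells Il1rn stood the other way, at 18.3 CPM in the young and 10.4 CPM in the old mouse (ratio 0.570, 0.438 to 0.737).

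**Figure D3:**
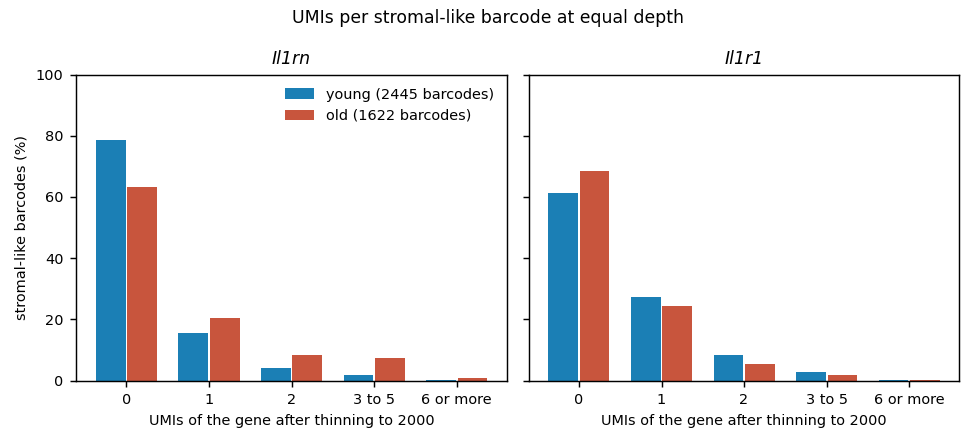
Share of stromal-like barcodes (%) by the number of Il1rn (left) and Il1r1 (right) UMIs left after thinning each barcode to 2000 UMIs, young (blue, 2445 barcodes) and old (red, 1622 barcodes), 1 mouse each. Old barcodes have fewer zeros for Il1rn (63.2% against 78.6%) and more zeros for Il1r1 (68.5% against 61.3%).

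The receptor Il1r1 moved less. Its ratio of old to young was 0.790 (0.754 to 0.829) in stromal-like, 1.00 (0.949 to 1.06) in fibroblast-like and 1.06 (0.962 to 1.18) in chondrocyte- or tendon-like cells, and 0.537 (0.472 to 0.611) in osteoblast-like cells. In osteoblast-like cells 1 of 4 members passed 2-fold, Il1r2 with 18 young and 5 old UMIs, where 8.10% of 13082 genes did. In fibroblast-like cells 1 of 7 passed, Il1b with 11 and 30 UMIs, where 4.90% of 13882 genes did. Il33 had a ratio of 1.28 (1.17 to 1.40) in fibroblast-like cells and 1.88 (1.53 to 2.31) in chondrocyte- or tendon-like cells. In the latter class 4 of 7 members passed 2-fold, Il1b, Il1rn, Il1r2 and Il1rl1, each higher in the old mouse from 17 to 43 old UMIs, where 5.92% of 13471 genes did. In old chondrocyte- or tendon-like cells 5 barcodes carried 72.1% of the Il1rn and 82.4% of the Il1rl1 UMIs. The S100a8 and S100a9 level of this class also differed, with 14.3 CPM in the young and 38.9 CPM in the old mouse. Per 100 of these UMIs, Il1b was at 5.43 and 4.66, Il1rn at 12.5 and 11.8 and Il1r2 at 10.3 and 9.04, with overlapping intervals. The part of neutrophil RNA in these differences was not tested.

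In neutrophil-like cells none of 5 members passed 2-fold, where 11.2% of 5372 genes did, a count too small to set the members apart from other genes. The ratio was 0.888 (0.853 to 0.925) for Il1b, 1.25 (1.08 to 1.44) for Il1rn, 1.17 (1.08 to 1.27) for Il1r2 and 1.39 (0.877 to 2.29) for Il1rap. In other blood, 1 of 6 members passed, Il1rn with 7 and 24 UMIs, where 8.18% of 12451 genes did. The S100a8 and S100a9 level in these sums was 10.5 CPM in the young and 30.2 CPM in the old mouse. Il1rn per 100 of these UMIs was 4.32 and 5.91, with overlapping intervals, and the part of neutrophil RNA was not tested. In megakaryocyte-like cells 1 of 2 members passed, where 6.26% of 6226 genes did: Il1a was lower in the old mouse, with a ratio of 0.446 (0.322 to 0.611), and 1 young barcode carried 27 of the 131 young UMIs. At equal depth 30.2% (19.2% to 43.0%) of 63 young and 14.9% (6.20% to 28.3%) of 47 old barcodes had an Il1a UMI, and these intervals overlapped. In erythroid-like cells none of 4 members passed, where 4.69% of 11397 genes did, and Il1rl1 had a ratio of 1.40 (1.22 to 1.60).

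**Figure D4:**
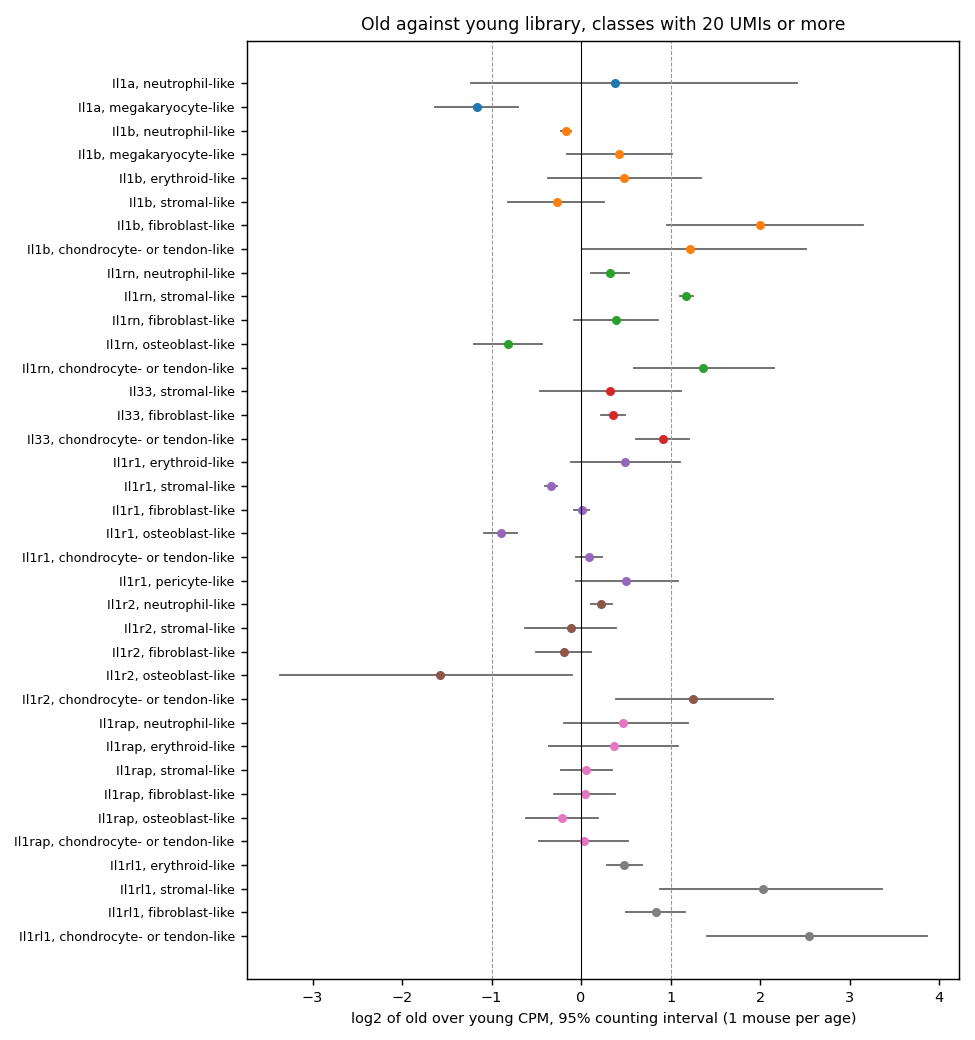
log2 ratio of the old over the young CPM of each member, by cell class, for classes with at least 20 UMIs of the member in both libraries together. Lines are 95% counting intervals with 1 mouse per age, and dashed lines mark a 2-fold difference. Il1rn in stromal-like cells (1.18) stands right of the dashed line with a narrow interval, while Il1b, Il1rn and Il1r2 in neutrophil-like cells stay between -0.17 and 0.32.

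CD24 status allowed a comparison within each mouse. Of the mesenchymal barcodes, 744 of 8607 young and 232 of 4333 old were CD24+ by the antibody count. Between CD24+ and CD24- sums 6 of 7 members differed, where 20.2% of 15358 genes did. Il33 had 8.36 and 9.18 CPM in CD24+ against 21.2 and 24.9 CPM in CD24- cells of the young and old mouse (log2 difference of -1.32, SE 0.14, adjusted p = 1.08e-05). Il1rn had 27.7 and 54.8 against 46.9 and 116 CPM (-0.86, SE 0.09, adjusted p = 1.07e-05), and Il1r1 had 82.2 and 81.8 against 147 and 128 CPM (-0.69, SE 0.08, adjusted p = 1.45e-05). Il1r2 was also lower, with 1.25 and 1.72 against 6.20 and 5.26 CPM (adjusted p = 0.000795), from 10 and 6 UMIs in CD24+ cells. Il1rap did not pass (0.28, SE 0.17, adjusted p = 0.317).

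The other 2 calls rested on few UMIs or on 1 mouse. Il1b (-1.73, SE 0.57, adjusted p = 0.0452) rested on 3 CD24+ UMIs in each mouse. Il1rl1 (1.46, SE 0.48, adjusted p = 0.0452) was higher in CD24+ cells of the young mouse (10.4 against 1.67 CPM) and lower in those of the old (3.73 against 5.21 CPM). Both lost their call with DESeq2 (adjusted p = 0.439 and 0.262). CD24+ cells held fewer of the classes in which Il1rn, Il1r1 and Il33 were high: 116 of 744 young CD24+ barcodes were stromal-like and 122 fibroblast-like, against 2591 and 2608 of 7863 CD24- barcodes. In the old mouse 41 of 232 CD24+ barcodes were stromal-like and 33 fibroblast-like, against 1736 and 1194 of all 4333 mesenchymal barcodes. Within stromal-like cells, Il1rn was at 160 CPM in CD24+ and 161 CPM in CD24- barcodes of the young mouse, and at 376 and 363 CPM in the old. Il1r1 within stromal-like cells was at 202 and 267 CPM in the young and at 201 and 207 CPM in the old mouse. Within fibroblast-like cells Il33 was at 30.5 CPM in CD24+ and 45.9 CPM in CD24- barcodes of the young mouse, and at 49.8 and 57.7 CPM in the old. The part of the mix of classes in the CD24 differences was not tested.

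**Figure D5:**
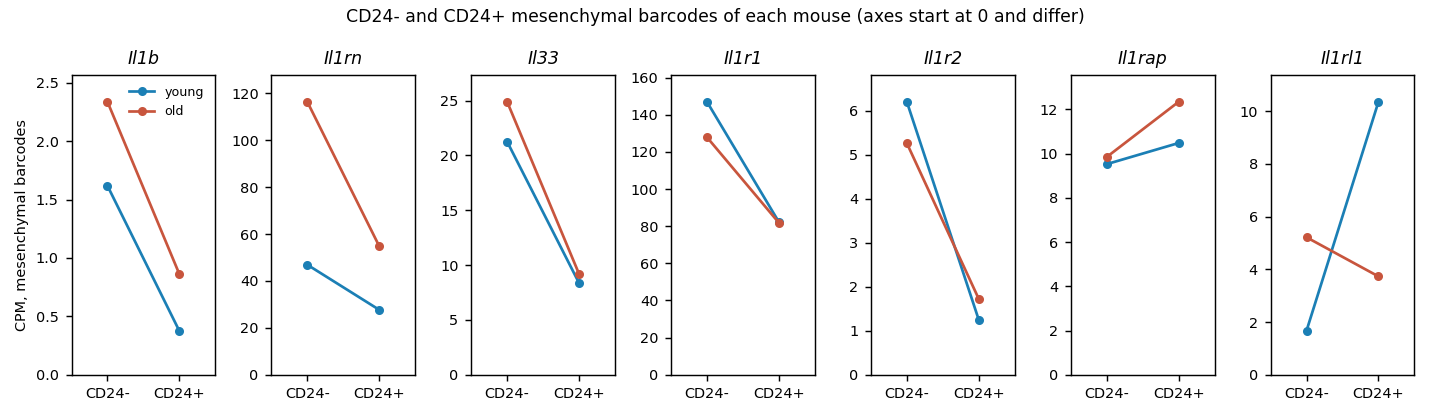
CPM of 7 members in CD24- and CD24+ mesenchymal barcodes of the young (blue) and old (red) mouse, with axes that start at 0 and differ between panels. Il1b, Il1rn, Il33, Il1r1 and Il1r2 lie lower in CD24+ than in CD24- barcodes of both mice, whereas the lines of Il1rl1 cross.

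Of the pathway lists, read beside the 20.2% of all genes called by CD24, 8 of 15 tested IL-1 responsive genes were lower in CD24+ cells and none was higher (median -0.38 against 0.00 over all genes), among them Vcam1 (-0.88, SE 0.06), Tnfaip6 (-0.71, SE 0.06) and Cxcl1 (-0.38, SE 0.08). Of the signalling genes 1 was higher (Tab2, 0.32, SE 0.07), 1 was lower and 14 did not pass. Of the genes of processing and release 4 were lower and 4 did not pass, with Casp4 at -0.69 (SE 0.11). Among the mesenchymal classes Vcam1 was highest in stromal-like cells (1387 and 1425 CPM), and Cxcl1 and Tnfaip6 in fibroblast-like cells. CD24+ barcodes held fewer of both classes, as given above, and the part of this mix in the list differences was not tested.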

How the data were processed

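The deposited values were raw counts of UMIs per gene and barcode, which the authors made with Cell Ranger (mm10 per the labels) from 10x 3′ libraries, with no normalization. Members and gene lists were chosen with earlier results of these data known. Kept barcodes were called neutrophil-like (at least 1% neutrophil marker UMIs, under 1% mesenchymal), other blood (at least 0.2% blood, under 0.2% neutrophil, under 1% mesenchymal) or mesenchymal (at least 1%, under 0.2% neutrophil, under 1% other blood). Mesenchymal classes took the highest marker share relative to its 95th percentile. Sums were tested with edgeR 4.0.16 (TMM, filterByExpr, Benjamini-Hochberg), with DESeq2 1.42.0 as an alternative, and both were tested on simulated data. Doublets called by Scrublet (scanpy 1.11.5; 269 young or 2.67%, 57 old or 1.02%) were kept, with their removal as an alternative. Within 1.5-fold of the neutrophil, blood and mesenchymal thresholds lay 12, 96 and 135 young and 121, 87 and 150 old barcodes. CD24+ is an antibody count above the Otsu threshold of log(1 + count). Named genes are the members, the 3 list genes with most UMIs, and the 3 most alike genes, of which 1 is not reported here. Groups of samples follow the labels.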

Additional observations from a re-analysis of the deposited data

Results flagged for a closer look

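Barcodes outside the compared groups, either removed by the filters or left unplaced (1575 young and 1504 old), also held UMIs of the members, above the level that a count of 0 allows. Il1b was at 411 CPM in the young and 315 CPM in the old, Il1r2 at 77.9 and 150 CPM, and Il1rn at 66.6 and 116 CPM. Il1r1 was at 68.5 and 37.7 CPM, Il1rl1 at 12.1 and 19.6 CPM, Il1rap at 9.48 and 12.5 CPM, and Il33 at 3.16 and 5.61 CPM. Il1a was at 1.05 CPM in the young, from 4 UMIs. Unplaced barcodes held 29.3% of the young and 8.91% of the old Il1b UMIs of kept barcodes.

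In some comparisons the mice moved in opposite directions, and these differences between mice were not tested. The log2 difference of Il1rl1 between CD24+ and CD24- mesenchymal cells was 2.63 for the young mouse and -0.48 for the old. Between osteoblast-like and stromal-like cells it was 1.19 and -4.17. For Il1a between neutrophil-like cells and other blood the young mouse stood at -0.00361 and the old at 1.29.

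The difference between old and young also had opposite signs in different mesenchymal classes, with counting intervals that leave out 0 and no test of the difference. On the log2 scale Il1rn was at 1.18 in stromal-like, 1.36 in chondrocyte- or tendon-like and -0.81 in osteoblast-like cells. Il1r2 was at 1.25 in chondrocyte- or tendon-like and -1.58 in osteoblast-like cells. Per 100 UMIs of S100a8 and S100a9 in the young and old mouse, Il1rn was at 733 and 617 in stromal-like cells. It was at 12.5 and 11.8 in chondrocyte- or tendon-like and at 105 and 25.1 in osteoblast-like cells. Il1r2 per 100 was at 10.3 and 9.04 in chondrocyte- or tendon-like and at 10.1 and 1.41 in osteoblast-like cells. The part of neutrophil RNA was not tested.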

How the results depend on the processing

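All tests had the mouse as a block, and the fits with the other settings gave these changes. Directions turned for Il33 between neutrophil-like cells and other blood with DESeq2 (1.44 on the log2 scale), and for Il1rap between osteoblast-like and stromal-like cells with the marker share doubled (0.03) or barcodes thinned to 2000 UMIs (0.04), none of them called. With 1 mouse left out there was no test, and values ran from -0.00361 to 1.29 for Il1a between neutrophil-like cells and other blood and from -0.48 to 2.63 for Il1rl1 by CD24.

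Thinning left fewer UMIs and fewer genes to test. Calls went from 11006 to 7072 genes between other blood and mesenchymal cells, from 6083 to 3748 between osteoblast-like and stromal-like cells and from 3097 to 1309 by CD24. Members called went from 7 to 4 between neutrophil-like cells and other blood, from 7 to 4 (of 5 tested) between fibroblast-like and stromal-like cells, from 4 to 2 between osteoblast-like and stromal-like cells and from 6 to 3 by CD24. By CD24, 1375 genes were called with DESeq2 and 1645 without predicted doublets, and the cause was not tested. Members that differed by more than 2-fold between old and young went, after thinning, from 1 to 0 in other blood, from 1 to 3 in mesenchymal, from 2 to 1 in stromal-like, from 1 to 2 in fibroblast-like, from 1 to 0 in osteoblast-like, from 4 to 1 in chondrocyte- or tendon-like and from 0 to 1 in pericyte-like cells. With the marker share doubled they were 2 in other blood and 2 in fibroblast-like cells.

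Counts in neutrophil-like cells are few, 67 of 167 young barcodes held under 2000 UMIs, and each age is 1 mouse, so intervals cover counting error only.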
